A study of Mus musculus with 6 samples.

Results

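The genes described here encode the enzymes that cut the extracellular matrix, the inhibitors that hold them back and the enzymes that hydroxylate and crosslink collagen. They were taken from the expression table by gene symbol alone and comprise the *Adam*, *Adamts*, *Adamtsl*, *Mmp* and *Timp* families, the lysyl oxidases (*Lox*, *Loxl*), the lysyl hydroxylases (*Plod*) and the subunits of prolyl 4-hydroxylase (*P4ha*, *P4hb*). Of the 14647 genes listed, 52 were members, and 42 of these were expressed highly enough to be tested, with a mean of at least 0.5 RPKM (reads per kilobase and per unit of library depth) over the libraries. In the annotation used here, 88 protein-coding genes carry such symbols. The members that were not listed are not analysed here.

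RNA was sequenced from the pharyngeal region of 3 *Pax9*-null (*Pax9*-/-) and 3 wild-type mouse embryos at E9.5, which were matched by somite number and kept on a C57Bl/6J background. The tissue reached from the border of the first and second pharyngeal arch down to the base of the heart, and gave 1 library per embryo. *Pax9* encodes a paired-box transcription factor of the pharyngeal endoderm, whereas the dissected tissue also holds mesenchyme, mesoderm, endothelium, neural tissue and blood. The null allele was present in every cell of the embryo. In tissue of this kind, fewer cells of one type and less RNA per cell cannot be told apart.

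Fibrillar collagen is hydroxylated on prolines and lysines inside the endoplasmic reticulum, trimmed of its propeptides outside the cell and then crosslinked by lysyl oxidases. Metalloproteases of the ADAM, ADAMTS and MMP families share a catalytic zinc ion held by histidines, and cut matrix proteins, growth factors and cell surface proteins, while tissue inhibitors of metalloproteinases (TIMPs) block their active site. In the pharyngeal arches the matrix surrounds the migrating neural crest cells and the arch arteries.

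The libraries held between 11676946 and 12705808 reads on listed genes. *Pax9* itself lay between −0.63 and −0.43 log2 RPKM in the libraries labelled *Pax9*-null and between 0.63 and 0.96 in the wild-type libraries (log2 fold change −1.32, limma adjusted *P*=0.0155), in the direction of the genotype labels. Wild-type replicate 3 stood apart, since its 7 cardiomyocyte markers summed to 75.2 RPKM against 1116 to 1475 in the other 5 libraries, and its smooth muscle markers to 50.5 RPKM against 217 to 289. Its 7 markers of neurons and neural tube summed to 202 RPKM, against 105 to 138 elsewhere. In wild-type replicate 1 the 6 endothelial markers summed to 91.3 RPKM, against 43.4 to 58.9 in the other 5 libraries. Of these 6 markers 5 had fold changes below 0 (median over the 6 −0.48), and *Cdh5* (−0.67, limma adjusted *P*=0.0735) and *Tie1* (−0.74, limma adjusted *P*=0.082) were called lower. The 7 erythroid markers summed to 2635 to 4883 RPKM in *Pax9*-null and 2387 to 2492 RPKM in wild-type libraries, and the 7 markers of arch mesenchyme to 141 to 152 RPKM and 136 to 146 RPKM. Hepatocyte markers were nearly absent, as *Afp*, *Alb*, *Apoa1* and *Ttr* were not listed, and so were macrophage markers (at most 1.47 RPKM in sum, *Adgre1*, *C1qa* and *Ptprc* not listed). Of the endoderm markers *Nkx2-1* was not listed, whereas *Epcam* and *Cldn6* were at log2 RPKM of at least 4.93 in every library. Their log2 fold changes were 0.12 and −0.0009. *Pax1* had a log2 fold change of −0.74 without overlap of the groups (limma adjusted *P*=0.101), and *Foxa2* one of 0.31 (limma adjusted *P*=0.399). The part of these differences in the results below was not tested, and counts are given with and without the libraries concerned.

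Of the 42 tested members, 12 passed the limma threshold (adjusted *P* of at most 0.1) as lower in *Pax9*-null embryos, and 0 as higher. They made up 28.6% of the members, against 12.0% of all 13547 tested genes that were lower, 14.7% that were higher and 26.7% that passed in either direction. The members that fell were *Adam19*, *Adamts3*, *Adamts7*, *Adamts12*, *Adamts15*, *Mmp2*, *Mmp14*, *Mmp15*, *Loxl2*, *Loxl3*, *Plod1* and *Plod3*, with log2 fold changes between −1.06 and −0.52. Fold changes were below 0 for 35 members (83.3%, against 50.2% of all tested genes), and the median log2 fold change was −0.35, against −0.0012 over all tested genes. At an unadjusted limma *P* below 0.05 there were 15 of the 42 members, against 4750 of all 13547 tested genes in either direction. Among the 15, *P4ha1* had the only fold change above 0. Limma with voom weights on the recovered reads gave the same 12 lower and 0 higher. At a threshold of 0.05 the members called lower were 2 (*Adamts7* and *Mmp2*), while 1335 of all 13547 tested genes passed in either direction. Once trends with exon length and GC content were taken out, 0 members were called lower at 0.1, while 733 of all tested genes passed in either direction.

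In 17 tested members (40.5%) the 3 *Pax9*-null libraries all lay below the 3 wild-type libraries, which was the case for 20.1% of all tested genes. The reverse order was found in 0 members and in 21.8% of all tested genes. All 12 called members were among the 17. A two-sided exact permutation test of any one of them gives *P*=0.1, the smallest that 3 against 3 libraries allow. Each call therefore rests on limma's model of the values and their variance, and not on the order of the libraries alone. With wild-type replicate 3 left out, 8 of the 12 members were still called and *Adamts3*, *Adamts12*, *Adamts15* and *Loxl3* were not. In that fit 2141 of all tested genes were called in either direction. With wild-type replicate 1 left out, *Mmp2* and *Adamts7* were called lower and *P4ha1* higher, while 1799 of all tested genes were called. With *Pax9*-null replicate 1 or *Pax9*-null replicate 3 left out, 0 members were called, while 301 and 175 of all tested genes were.

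**Figure D1:**
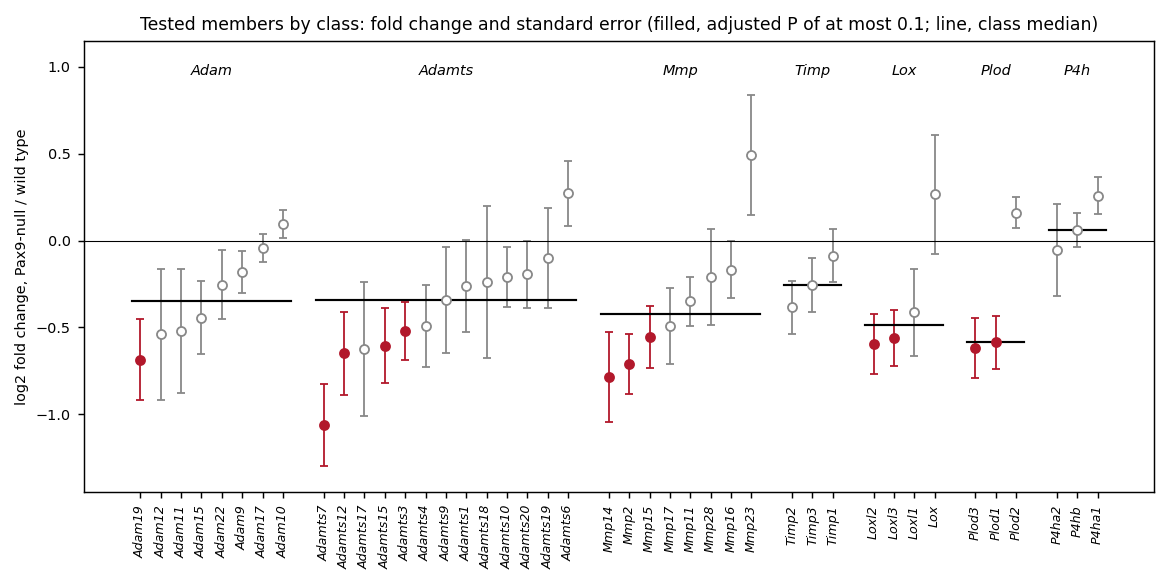
Each point is the log2 fold change (*Pax9*-null over wild type) of 1 tested member with its standard error from limma, ordered within its class, and the horizontal line is the class median. The 12 filled points passed the threshold, all of them below 0, and the *P4h* class has the only class median above 0 (0.06, or −0.03 under quantile normalization).

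The proteases of the ADAM family are membrane-anchored and shed growth factors, receptors and adhesion proteins from the cell surface. Of 10 listed *Adam* genes 8 were tested, 7 had fold changes below 0 and 1 was called, with a class median of −0.35. The called member was *Adam19* (ENSMUSG00000011256, GRCm38 chromosome 11 from 46055992 to 46147343), a sheddase of neuregulin that is needed for heart valve and septum formation. It was at 1.63 ± 0.17 log2 RPKM in *Pax9*-null and 2.31 ± 0.46 (SD, *n*=3 each) in wild-type embryos, on 229 to 638 recovered reads in each library. This gave a log2 fold change of −0.69 (standard error, s.e., 0.23 and limma adjusted *P*=0.085), or 62.2% of the wild-type level. The call was kept in 1 of the 6 fits with a library left out, that without wild-type replicate 3 (limma adjusted *P*=0.0654, 0.107 to 0.232 in the other 5).

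*Adam10*, the main sheddase of Notch receptors and cadherins and the member of the family with the highest level, was not called. Its log2 RPKM was 5.10, 5.09 and 5.20 in *Pax9*-null replicates 1 to 3 and 5.11, 4.96 and 5.04 in wild-type replicates 1 to 3. The groups overlapped and the log2 fold change was 0.09 (s.e. 0.08, limma adjusted *P*=0.429), although it was −0.0006 under quantile normalization and −0.08 once trends with length and GC content were taken out. *Adam17*, which releases tumour necrosis factor and ligands of the epidermal growth factor receptor, had a log2 fold change of −0.04 (s.e. 0.08). Within each library *Adam10* exceeded *Adam19* by 3.50 ± 0.22 on the log2 RPKM scale in *Pax9*-null and by 2.72 ± 0.42 (SD, *n*=3 each) in wild-type embryos. Their GC contents were 42.1% and 53.1%. With the trends removed the log2 fold change was −0.08 for *Adam10* and −0.36 for *Adam19*, a smaller gap than on the values as deposited. *Adam12*, a relative of *Adam19* in mesenchyme, had a log2 fold change of −0.54 (s.e. 0.38), with 1.82 log2 RPKM in wild-type replicate 1 against 0.12 to 0.92 in the other 5 libraries.

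The ADAMTS proteases are secreted and carry thrombospondin repeats that hold them in the matrix. Of 16 listed genes 13 were tested, 12 had fold changes below 0 and 4 were called lower, with a class median of −0.34. *Adamts7* (ENSMUSG00000032363, chromosome 9 from 90163069 to 90208071), a protease of cartilage oligomeric matrix protein that acts in vascular smooth muscle, had the largest fall of all tested members. Its log2 RPKM was −0.17, 0.04 and 0.23 in *Pax9*-null replicates 1 to 3 and 1.16, 0.69 and 1.43 in wild-type replicates 1 to 3, from 64 to 213 reads per library. The groups did not overlap, with wild-type replicate 2 and *Pax9*-null replicate 3 closest to each other. The log2 fold change was −1.06 (s.e. 0.24, limma adjusted *P*=0.0418), which left 47.8% of the wild-type level. *Adamts7* was not called without *Pax9*-null replicate 1 (limma adjusted *P*=0.166) or 3 (0.128), and passed in the other 4 such fits (0.0284 to 0.0783). Its exons share 122 bases with those of *Tbc1d2b* on the other strand.

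The other 3 called genes of the family lay between −0.65 and −0.52. *Adamts12*, which is closely related to *Adamts7*, was at 1.04 ± 0.23 in *Pax9*-null and 1.69 ± 0.42 (SD, *n*=3 each) log2 RPKM in wild-type embryos (log2 fold change −0.65, s.e. 0.24, limma adjusted *P*=0.0999). *Adamts15*, a protease of the proteoglycans versican and aggrecan, was at 0.38 ± 0.26 and 0.99 ± 0.27 (SD, *n*=3 each), with a log2 fold change of −0.61 (s.e. 0.22, limma adjusted *P*=0.0946). *Adamts3*, which removes the amino-terminal propeptide of procollagen and takes part in the activation of the lymphatic growth factor VEGFC, was at 0.46 ± 0.16 and 0.98 ± 0.09 (SD, *n*=3 each), with a log2 fold change of −0.52 (s.e. 0.17, limma adjusted *P*=0.0762). Without wild-type replicate 3 none of these 3 was called, with adjusted *P* values of 0.125, 0.136 and 0.119 by limma. Of the 6 fits with a library left out, *Adamts12* passed only without wild-type replicate 2 (0.0726), *Adamts3* only without *Pax9*-null replicate 2 (0.097), and *Adamts15* without either of these (0.0929 and 0.0872).

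The versican proteases *Adamts1* and *Adamts9*, which act in heart cushions and valves, were expressed above the called members of this family but were not called. *Adamts1*, the family member with the highest level, was at 3.62, 4.30 and 3.32 log2 RPKM in *Pax9*-null replicates 1 to 3 and 4.40, 3.94 and 3.69 in wild-type replicates 1 to 3. *Pax9*-null replicate 2 lay above wild-type replicates 2 and 3, and the log2 fold change was −0.26 (s.e. 0.27, limma adjusted *P*=0.51). *Adamts9* had a log2 fold change of −0.34 (s.e. 0.30). *Adamts6* had the only fold change above 0 in the family (0.27, s.e. 0.19, limma adjusted *P*=0.327).

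The matrix metalloproteinases degrade collagens, gelatins and other matrix proteins. Of 10 listed genes 8 were tested, 7 had fold changes below 0 and 3 were called lower, with a class median of −0.42. *Mmp2* (ENSMUSG00000031740, chromosome 8 from 92827291 to 92853420), gelatinase A, was the *Mmp* gene with the highest level. Its log2 RPKM was 4.16, 4.35 and 4.09 in *Pax9*-null replicates 1 to 3 and 5.32, 4.68 and 4.73 in wild-type replicates 1 to 3, from 672 to 1704 reads per library. The groups did not overlap, and wild-type replicate 1 was the highest. The log2 fold change was −0.71 (s.e. 0.17, limma adjusted *P*=0.0459), or 61.1% of the wild-type level. It passed without wild-type replicate 1 (0.0456) as well as without replicate 3 (0.0602), but not without *Pax9*-null replicate 1 (0.171) or 3 (0.136).

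*Mmp14* (ENSMUSG00000000957, chromosome 14 from 54431612 to 54445364) encodes the membrane-type metalloproteinase that cuts pro-MMP2 into its active form at the cell surface, in a complex with TIMP2. It was at 3.02 ± 0.30 log2 RPKM in *Pax9*-null and 3.80 ± 0.51 (SD, *n*=3 each) in wild-type embryos, with a log2 fold change of −0.78 (s.e. 0.26, limma adjusted *P*=0.0806). *Mmp15* (ENSMUSG00000031790, chromosome 8 from 95352268 to 95375080), another membrane-type member, was at 2.85 ± 0.21 and 3.40 ± 0.31 (SD, *n*=3 each), with a log2 fold change of −0.56 (s.e. 0.18, limma adjusted *P*=0.0752). With wild-type replicate 1 left out, *Mmp14* had an adjusted *P* of 0.125 and *Mmp15* one of 0.156, and neither passed without *Pax9*-null replicate 1 (0.252 and 0.218) or 3 (0.181 and 0.198). *Mmp15* was also lost without wild-type replicate 2 (0.128). *Mmp11* and *Mmp17* were lower in every *Pax9*-null library than in any wild-type library without passing the threshold (log2 fold changes −0.35 and −0.49, limma adjusted *P*=0.123 and 0.15). *Mmp16*, another membrane-type member, had a log2 fold change of −0.17 (s.e. 0.17), and *Mmp23* had the one value above 0 (0.49, s.e. 0.34, limma adjusted *P*=0.334).

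**Figure D2:**
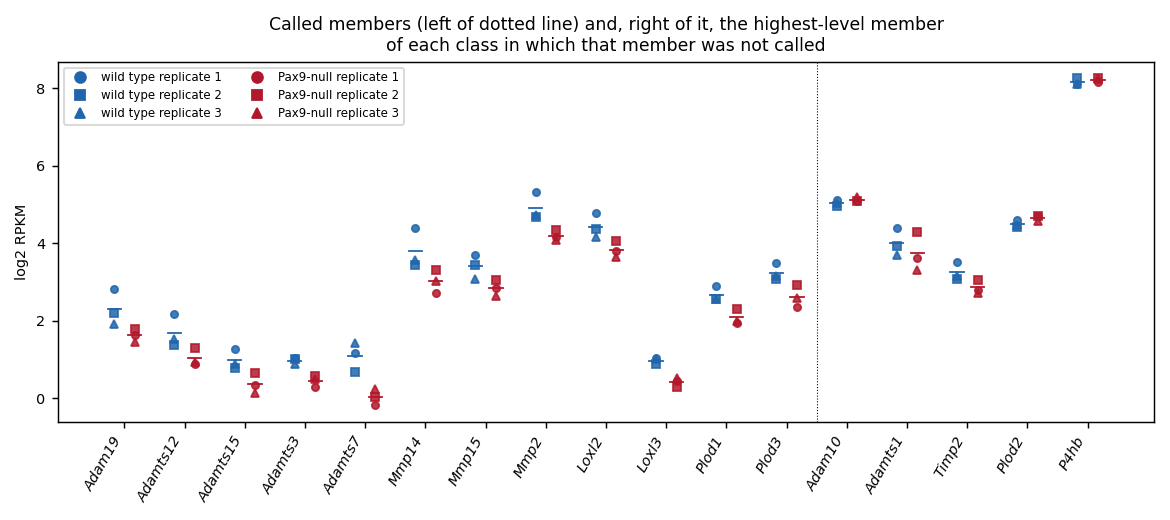
Points give the log2 RPKM (vertical axis) of single libraries, blue for wild type and red for *Pax9*-null with the replicate as the symbol, and short lines give the group means. Left of the dotted line the red points of each of the 12 called members lie below its blue points, and in 11 of the 12 wild-type replicate 1 is the highest blue point. Right of it stand 5 members that were not called and had the highest level of their class, and among these 5 the groups overlap except in *Timp2*, where they nearly touch.

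The catalytic zinc site is shown for the 8 called proteases, because it is the feature that makes them metalloproteases and that separates them from the other called members. Each line gives the sense strand of the GRCm38 annotation's coding sequence, 5′ to 3′, with capitals for the codons of the zinc-binding histidines and the catalytic glutamate. The coordinates are those of the first and last base, and in the *Adamts* genes the site is split by an intron.
*Mmp2* (chr8:92839279-92839311, + strand): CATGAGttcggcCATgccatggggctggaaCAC
*Mmp14* (chr14:54437627-54437659, + strand): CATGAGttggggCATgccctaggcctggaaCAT
*Mmp15* (chr8:95368585-95368617, + strand): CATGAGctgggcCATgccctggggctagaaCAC
*Adam19* (chr11:46125050-46125082, + strand): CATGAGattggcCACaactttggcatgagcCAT
*Adamts7* (chr9:90179456-90180640, + strand): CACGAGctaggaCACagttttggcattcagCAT
*Adamts12* (chr15:11241529-11255564, + strand): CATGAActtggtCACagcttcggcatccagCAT
*Adamts3* (chr5:89707433-89707818, − strand): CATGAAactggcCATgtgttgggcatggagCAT
*Adamts15* (chr9:30911255-30911690, − strand): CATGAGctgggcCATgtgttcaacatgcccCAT

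The metzincin zinc-binding motif was found in the longest annotated coding sequence of 32 of the 52 members, among them 7 of 10 *Adam*, 15 of 16 *Adamts* and 10 of 10 *Mmp* genes. *Adam11*, *Adam22* and *Adam23*, which are known as catalytically inactive family members, lacked it, as did the 3 *Adamtsl* genes, which have no protease domain. The letters were not matched in *Adamts8*. Of the 27 tested members with the motif, 8 were called lower and the median log2 fold change was −0.35. Of the 15 tested members without it, 4 were called lower and the median was −0.26. *Adam11* and *Adam22* had log2 fold changes of −0.52 (s.e. 0.36) and −0.26 (s.e. 0.20).

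Of the members under 0.5 RPKM that were not tested, the highest library reached −0.67 log2 RPKM for *Adamts5*, −0.75 for *Adamts8*, −0.83 for *Adamts2*, −0.86 for *Mmp24* and −0.90 for *Adamtsl2*. The others reached −0.96 (*Adam23*), −0.996 (*Mmp9*), −1.39 (*Adam8*), −1.51 (*Adamtsl4*) and −1.90 (*Adamtsl1*). *Mmp9*, the second gelatinase, had 6 to 22 reads per library. Its *Pax9*-null values all lay below the wild-type values, as did those of *Adamtsl1* and *Adamtsl2*. In the limma fit without a filter *Mmp9* had a log2 fold change of −0.99 and an adjusted *P* of 0.0722.

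The *Timp* genes were not called. All 3 listed inhibitors had fold changes below 0 with a class median of −0.26. *Timp2* (ENSMUSG00000017466, chromosome 11 from 118301069 to 118355740) was at 2.81, 3.07 and 2.72 log2 RPKM in *Pax9*-null replicates 1 to 3 and 3.52, 3.08 and 3.15 in wild-type replicates 1 to 3. The groups did not overlap, but *Pax9*-null replicate 2 and wild-type replicate 2 lay side by side. The log2 fold change was −0.38 (s.e. 0.15, limma adjusted *P*=0.119), and it passed with *Pax9*-null replicate 2 left out (0.097). *Timp3*, a matrix-bound inhibitor that also blocks ADAM proteases, had a log2 fold change of −0.26 (s.e. 0.16), and its exons share 1733 bases with those of *Syn3* on the other strand. *Timp1* had a log2 fold change of −0.09 (s.e. 0.15, limma adjusted *P*=0.711).

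The RNA level of a protease can be set against that of an inhibitor within a library, where any scaling of the whole library drops out. Such a difference does not measure enzyme activity, and of the 3 listed inhibitors only *Timp2* was used. *Mmp2* exceeded *Timp2* by 1.33 ± 0.04 on the log2 RPKM scale in *Pax9*-null and by 1.66 ± 0.11 (SD, *n*=3 each) in wild-type embryos, and the libraries did not overlap. For *Mmp14* over *Timp2* the differences were 0.15 ± 0.22 and 0.56 ± 0.27 (SD, *n*=3 each), again without overlap. These pairs, and the others given within a library, were chosen after the values had been seen and were not tested.

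The lysyl oxidases start the crosslinking of collagen and elastin by oxidising lysines outside the cell. All 4 listed genes were tested, 3 had fold changes below 0 and 2 were called lower, with a class median of −0.49. *Loxl2* (ENSMUSG00000034205, chromosome 14 from 69609068 to 69695834), which crosslinks collagen IV of basement membranes, had the highest level. Its log2 RPKM was 3.79, 4.06 and 3.66 in *Pax9*-null replicates 1 to 3 and 4.77, 4.38 and 4.15 in wild-type replicates 1 to 3, from 801 to 1873 reads per library. The groups did not overlap, with *Pax9*-null replicate 2 and wild-type replicate 3 closest to each other. The log2 fold change was −0.59 (s.e. 0.17, limma adjusted *P*=0.0624), or 66.2% of the wild-type level. It passed with wild-type replicate 3 left out (0.0574), and not with wild-type replicate 1 (0.109), *Pax9*-null replicate 1 (0.203) or *Pax9*-null replicate 3 (0.17) left out.

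*Loxl3* (ENSMUSG00000000693, chromosome 6 from 83034173 to 83052562), which is needed for palate and spine formation, was at 0.42 ± 0.12 log2 RPKM in *Pax9*-null and 0.98 ± 0.09 (SD, *n*=3 each) in wild-type embryos, a log2 fold change of −0.56 (s.e. 0.16, limma adjusted *P*=0.0624). It passed in 1 of the 6 fits with a library left out, that without wild-type replicate 2 (0.0783), and had 0.119 to 0.188 in the other 5. With 64 to 120 reads per library it was among the called members with the fewest reads, and its exons share 535 bases with those of *Htra2* on the other strand. *Loxl1*, which acts mainly on elastin, had a log2 fold change of −0.41 (s.e. 0.25). *Lox* itself did not pass and had a fold change above 0 (0.27, s.e. 0.34, limma adjusted *P*=0.609). Within each library *Lox* minus *Loxl2* was −3.53 ± 0.37 on the log2 RPKM scale in *Pax9*-null and −4.39 ± 0.33 (SD, *n*=3 each) in wild-type embryos. Their GC contents were 43.9% and 51.7%. With trends with exon length and GC content removed, the log2 fold change was 0.15 for *Lox* and −0.42 for *Loxl2*.

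The 3 lysyl hydroxylases, which supply the hydroxylysines used in these crosslinks, did not share a direction. *Plod1* and *Plod3* fell, whereas *Plod2* did not pass and had a fold change above 0. *Plod1* (ENSMUSG00000019055, chromosome 4 from 147909753 to 147936767), which hydroxylates the triple-helical part of collagen, was at 1.95, 2.31 and 2.01 log2 RPKM in *Pax9*-null replicates 1 to 3 and 2.90, 2.55 and 2.57 in wild-type replicates 1 to 3. The groups did not overlap, and the log2 fold change was −0.58 (s.e. 0.15, limma adjusted *P*=0.0513), or 66.7% of the wild-type level. *Plod3* (ENSMUSG00000004846, chromosome 5 from 136987019 to 136996648), which also adds sugars to hydroxylysine, was at 2.37, 2.92 and 2.58 in *Pax9*-null replicates 1 to 3 and 3.49, 3.08 and 3.16 in wild-type replicates 1 to 3. The groups did not overlap here either, and the log2 fold change was −0.62 (s.e. 0.17, limma adjusted *P*=0.0572), or 65.1% of the wild-type level. With wild-type replicate 1 left out, *Plod1* had an adjusted *P* of 0.103 and *Plod3* one of 0.118. Both passed with replicate 3 of the wild type left out (0.0798 and 0.087), and neither passed without *Pax9*-null replicate 1 (0.186 and 0.198) or 3 (0.141 and 0.151). The exons of *Plod3* share 529 bases with those of *Znhit1* on the other strand.

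*Plod2* (ENSMUSG00000032374, chromosome 9 from 92542223 to 92608428) hydroxylates the telopeptides, where it sets the kind of crosslink formed, and is a known target of the hypoxia-inducible factor. It had the highest level of the 3, with 4.70, 4.71 and 4.57 log2 RPKM in *Pax9*-null replicates 1 to 3 and 4.61, 4.41 and 4.48 in wild-type replicates 1 to 3. Wild-type replicate 1 lay within the *Pax9*-null range, and the log2 fold change was 0.16 (s.e. 0.09, limma adjusted *P*=0.233). Within each library *Plod2* exceeded *Plod1* by 2.57 ± 0.17 on the log2 RPKM scale in *Pax9*-null and by 1.83 ± 0.10 (SD, *n*=3 each) in wild-type embryos, and *Plod3* by 2.04 ± 0.27 and 1.26 ± 0.11 (SD, *n*=3 each). The libraries did not overlap in either pair. The exons of *Plod2* sum to 5392 bases with a GC content of 43.0%, and those of *Plod3* to 4519 bases with a GC content of 57.8%. With each library's trends with exon length and GC content removed, the log2 fold change was 0.04 for *Plod2*, −0.29 for *Plod1* and −0.28 for *Plod3*.

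Prolyl 4-hydroxylase, which stabilises the collagen triple helix, is made of a catalytic α subunit (P4HA) and protein disulphide isomerase (P4HB). None of the 3 listed genes was called, 1 had an unadjusted *P* below 0.05, and the class median was 0.06 (−0.03 under quantile normalization). *P4hb* (ENSMUSG00000025130, chromosome 11 from 120560298 to 120573253), a chaperone of many secreted proteins, had the highest level of the 52 members, with 8.17, 8.26 and 8.24 log2 RPKM in *Pax9*-null replicates 1 to 3 and 8.12, 8.26 and 8.11 in wild-type replicates 1 to 3. The groups overlapped, and the log2 fold change was 0.06 (s.e. 0.10, limma adjusted *P*=0.703). Under quantile normalization it was −0.31 (limma adjusted *P*=0.0753), so that its direction depended on the scaling.

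*P4ha1* (ENSMUSG00000019916, chromosome 10 from 59323296 to 59373304), the main catalytic subunit, was at 5.45 ± 0.12 log2 RPKM in *Pax9*-null and 5.20 ± 0.15 (SD, *n*=3 each) in wild-type embryos, a log2 fold change of 0.26 (s.e. 0.11, limma adjusted *P*=0.127). Wild-type replicate 1, at 5.37, lay above *Pax9*-null replicate 1, at 5.35, and without wild-type replicate 1 the gene was called higher (0.0792, against 0.218 to 0.28 without another library). It was also called higher with each library centred on its median (0.0846). *P4ha2* had a log2 fold change of −0.06 (s.e. 0.27), and the difference between the subunits overlapped between genotypes.

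**Figure D3:**
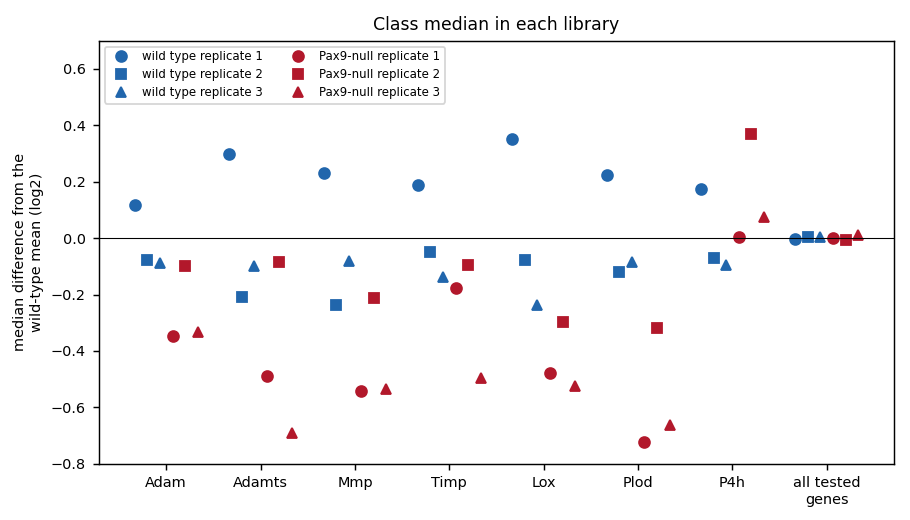
For each class and library the point is the median, over tested members, of the difference from the member's wild-type mean (vertical axis, log2 RPKM). In the 6 classes other than *P4h* wild-type replicate 1 is the highest library, *Pax9*-null replicates 1 and 3 lie below 0, and all tested genes together lie between −0.01 and 0.01.

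Most of the tested members shared an order of the libraries. The called members were picked out on these same values, so their counts below are a description only. Wild-type replicate 1 was the highest wild-type library in 33 of the 42 tested members (78.6%), against 39.0% of all tested genes, and in 11 of the 12 called members. *Pax9*-null replicate 2 was the highest *Pax9*-null library in 29 members (69.1%, against 34.4% of all tested genes) and in 10 of the 12 called members, while *Pax9*-null replicate 3 was the lowest in 21 and replicate 1 in 17. The class medians ran between 0.12 and 0.35 above the wild-type mean in wild-type replicate 1 in all 7 classes. In wild-type replicates 2 and 3 they lay between −0.24 and −0.05. In *Pax9*-null replicate 2 they lay between −0.32 and −0.09 in the 6 classes other than *P4h*, so that for *Adamts*, *Mmp* and *Timp* this library lay above the lower of wild-type replicates 2 and 3. In wild-type replicate 1 the endothelial markers were at their highest, as given above, and the part of this in the members' order was not tested.

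In these libraries long and GC-rich genes tended towards lower fold changes. The called members had a median exon length of 5418 bases and a median GC content of 53.9%, against 5347 bases and 49.8% for the tested members not called and 3847 bases and 49.3% for all tested genes. All genes called lower had medians of 5502 bases and 54.7%, and those called higher 2267 bases and 44.0%. With each library's trends with exon length and GC content removed, 0 members were called (at most 0.1 adjusted *P* by limma, smallest 0.118 for *Timp1*), and 733 of all tested genes were. The medians became −0.09 for *Adam*, −0.10 for *Adamts*, −0.15 for *Mmp*, −0.17 for *Timp*, −0.21 for *Lox*, −0.28 for *Plod* and 0.19 for *P4h*, and 29 members had fold changes below 0. *Adamts7* (−0.63, limma adjusted *P*=0.151), *Adamts12* (−0.58, 0.154), *Mmp14* (−0.54, 0.207) and *Mmp2* (−0.45, 0.149) were among the 8 called members that kept the larger part of their fold change, whereas *Adamts15* (−0.10), *Mmp15* (−0.16), *Plod1* (−0.29) and *Plod3* (−0.28) did not. *Timp1*, with 888 bases the shortest tested member, went to a log2 fold change of −0.54.

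**Figure D4:**
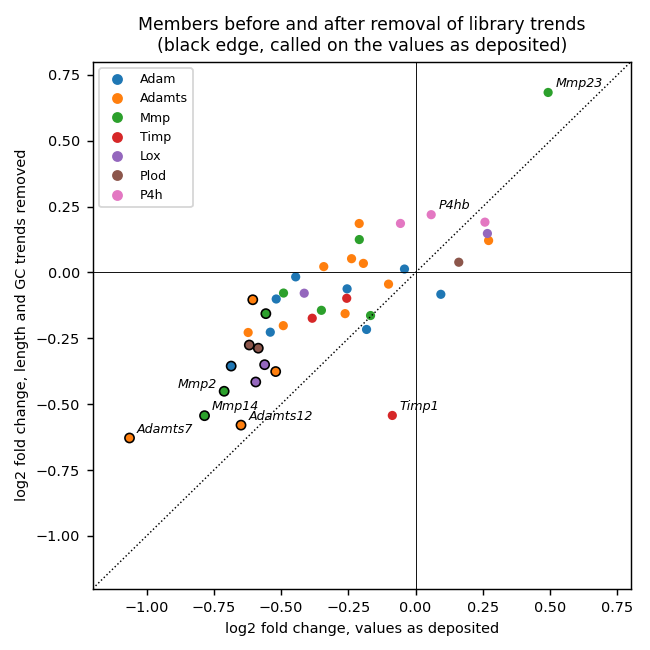
Each point is 1 tested member, coloured by class, with its log2 fold change on the values as deposited (horizontal axis) and after each library's trends with exon length and GC content were removed (vertical axis). The 12 members with a black edge lie above the dotted line of equality but still below 0, between −0.63 and −0.10, and *Timp1* lies far below the line.

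The promoters of 31 members were held in the RefSeq table of 300-base windows around annotated start sites (GRCm38.p6), in 34 windows. *Mmp2*, *Adamts7*, *Loxl2* and *Plod2* had no window. The core of the hypoxia response element, ACGTG or GCGTG on either strand, was searched because *P4ha1*, *Plod1* and *Plod2* are known targets of hypoxia-inducible factor. It was found in 25 of the 34 windows (73.5%), belonging to 23 members, and in 43.8% of all 32851 windows. The members' windows had a higher median GC content (66.0% against 52.7%). The AP-1 site TGANTCA, searched because *Mmp* promoters are known for it, was found in 1 member window, of *Adam19*, and in 7.81% of all windows. The windows of a called protease, a called lysyl hydroxylase and the main prolyl hydroxylase subunit are shown on the + strand, with matches of the hypoxia response core in capitals. A match is a description of these letters.
*Mmp14* (chr14:54431348-54431647, + strand): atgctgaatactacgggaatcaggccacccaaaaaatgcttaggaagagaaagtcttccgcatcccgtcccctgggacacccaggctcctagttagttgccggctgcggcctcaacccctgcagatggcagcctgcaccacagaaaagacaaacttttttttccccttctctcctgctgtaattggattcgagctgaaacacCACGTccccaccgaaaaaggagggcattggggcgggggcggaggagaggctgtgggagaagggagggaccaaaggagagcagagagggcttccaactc
*Plod3* (chr5:136986769-136987068, + strand): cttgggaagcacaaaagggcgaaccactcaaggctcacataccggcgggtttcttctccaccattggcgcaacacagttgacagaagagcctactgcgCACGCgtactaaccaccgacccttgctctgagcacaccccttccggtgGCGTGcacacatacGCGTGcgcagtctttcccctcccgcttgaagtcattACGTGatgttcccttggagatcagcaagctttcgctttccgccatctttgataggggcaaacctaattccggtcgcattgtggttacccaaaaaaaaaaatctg
*P4ha1* (chr10:59323046-59323345, + strand): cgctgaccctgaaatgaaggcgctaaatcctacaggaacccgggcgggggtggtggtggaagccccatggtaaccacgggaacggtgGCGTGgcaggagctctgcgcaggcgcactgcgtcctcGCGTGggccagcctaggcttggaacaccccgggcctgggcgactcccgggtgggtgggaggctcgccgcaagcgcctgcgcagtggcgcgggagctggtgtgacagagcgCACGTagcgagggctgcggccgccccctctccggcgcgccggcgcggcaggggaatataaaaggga
The core was matched 4 times in the window of *Plod3*, which fell, 3 times in that of *P4ha1*, which was not called, and 1 time in that of *Mmp14*. In *Mmp15* it was not matched.

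A further list of 46 genes that act on the same matrix by other means was looked up in the same fit. Of these, 43 were listed and 41 tested, 32 had fold changes below 0, 8 were called lower and 3 higher, with a median of −0.24. The 8 made up 19.5% and the 3 made up 7.32% of the tested genes of the list, against 12.0% and 14.7% of all tested genes. The libraries did not overlap in 17 genes that were lower (41.5%, against 20.1% of all tested genes) and 4 that were higher (9.76%, against 21.8%). By role, 1 of 4 tested genes for removal of the carboxy-terminal propeptide was lower, 1 of 13 for collagen folding and modification lower and 2 higher, 0 of 6 protease inhibitors (lowest adjusted *P* 0.107 by limma, *Spock2*), 4 of 12 other proteases and activators lower and 1 higher, and 2 of 6 other matrix modifiers lower.

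*Bmp1*, the procollagen C-proteinase, was at 2.01, 2.61 and 2.50 log2 RPKM in *Pax9*-null replicates 1 to 3 and 3.57, 3.10 and 3.28 in wild-type replicates 1 to 3, with no overlap. Its log2 fold change was −0.94 (s.e. 0.19, limma adjusted *P*=0.0352), or 52.0% of the wild-type level. The proprotein convertases *Furin* and *Pcsk6*, which cleave the prodomains of many secreted and membrane-bound enzymes, had log2 fold changes of −0.75 and −0.82 (limma adjusted *P*=0.0629 and 0.0473). *Ctsk*, the collagen-degrading cathepsin, had −1.11 (limma adjusted *P*=0.0425) on 8 to 27 reads per library, and *Plat*, tissue plasminogen activator, −0.38 (0.0666). The heparan sulphate 6-O-endosulphatases *Sulf1* and *Sulf2*, which alter growth factor binding outside the cell, had −0.79 and −0.92 (0.0309 and 0.0378). *Fkbp10*, a collagen chaperone that acts with lysyl hydroxylases, had −0.50 (0.0803).

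The 3 genes that were higher were *Ppib* (0.36, limma adjusted *P*=0.0908), the cyclophilin of the prolyl 3-hydroxylase complex, *Tmem38b* (0.56, 0.0901), a cation channel of the endoplasmic reticulum, and *Prss23* (0.43, 0.0518), a secreted serine protease. *Serpinh1*, the collagen chaperone HSP47, had a log2 fold change of 0.03 (s.e. 0.11). With the length and GC trends removed, 5 genes of this list were called, against 733 of all 13524 genes in that fit. They were *Bmp1* (limma adjusted *P*=0.0904), *Ctsk* (0.0446), *Sulf1* (0.0386) and *Sulf2* (0.0768) lower and *Bsg* higher (0.0785). With *Pax9*-null replicate 1 or 3 left out, 0 of the list were called, while 301 and 175 of all tested genes were.

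**Figure D5:**
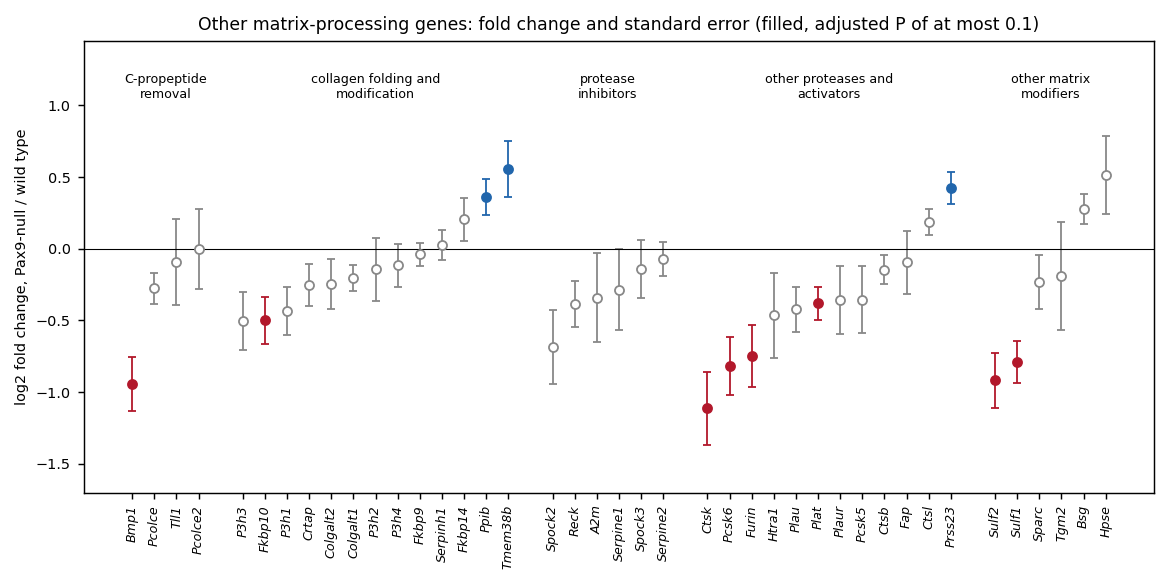
Points give the log2 fold change (*Pax9*-null over wild type) and the limma standard error of the 41 tested genes of the further list, grouped by role. Filled red points, 8 in all, were called lower and 3 filled blue points higher, and the protease inhibitors have no filled point.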

How the data were processed

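Embryos and tissue were handled as the study's methods describe, with TruSeq first-strand libraries of total RNA sequenced as paired ends. The sample labels name sorted cells and Smart-seq2 libraries instead, and the study's description was followed here. The authors trimmed the reads with Trimmomatic 0.32, kept unique and non-redundant reads, sub-sampled all libraries towards the smallest, aligned with STAR 2.5.1a and counted with featureCounts 1.5.1 at its default settings, which do not use strand (versions per the submitters' processing notes). Reads on exons shared by genes of opposite strands therefore cannot be told apart, and whether they were counted for either gene was not examined. Besides the overlaps given above, the called *Adam19* shares 587 exon bases with *Gm16033* and 480 with *Gm16034* on the other strand. *Loxl2* shares 301 with *Gm27177*. The deposited values are log2 RPKM for 14647 genes on GRCm38, with a prior count of 0.5 read off the lowest values. Whole reads were recovered at the GENCODE M21 gene length for 82.6% of the values, within 0.05 of a read, and the rest by a search of lengths. For the members, 44 of 52 were whole at the annotated length in every library.

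Genes whose mean over the libraries reached 0.5 RPKM were tested by limma 3.58.1 in R 4.3.3 (linear model and empirical Bayes with a trend of the variance, two-sided) on the log2 values of the 3 *Pax9*-null and 3 wild-type libraries. The study used limma with voom on counts, which was run here as an alternative. Benjamini-Hochberg adjustment ran over all 13547 genes, with a threshold of 0.1 as in the study. Fold changes divide *Pax9*-null by wild type. The replicates were separate embryos whose litters are not given in the sources used here. Named were the called members, and in each class the member with the lowest adjusted *P* and that with the highest mean level. Other members were named after their values were seen. The members and lists were chosen with earlier results of these data known. Alternatives were 2 other filters, pseudocounts of 0.1 and 1, median centring, quantile normalization, no variance trend, library weights, a replicate block, spline removal of each library's trends with exon length and GC content, a threshold of 0.05 and each library left out. The fit was tested on simulated data. The sequences are from GENCODE M21 transcripts and the RefSeq promoter table.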

Additional observations from a re-analysis of the deposited data

How the results depend on the processing

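The falls of the 12 members kept their direction under each alternative run, but their calls did not. The members called lower numbered 6 with a mean of at least 5 RPKM, 2 at a threshold of 0.05, 4 with a replicate block (*Adamts7*, *Loxl2*, *Mmp2* and *Mmp15*), 0 once trends with length and GC content were taken out, and 0 to 11 with a library left out. Between 9 and 13 were called under the other alternatives. Members called higher numbered 1 under median centring and 1 under library weights (*P4ha1* in both) and 0 to 1 with a library left out. Of the other matrix-processing genes, 5 were called lower and 0 higher with the replicate block, 5 and 0 at the threshold of 0.05, 4 and 1 with the trends removed, and 1 higher under quantile normalization, against 0 to 10 lower and 0 to 3 higher with a library left out. The median log2 fold change of *Adam* became −0.041 at 5 RPKM, −0.17 with a pseudocount of 1 and −0.092 with the trends removed, that of *Mmp* −0.63 at 5 RPKM and −0.15 with the trends removed, that of *Lox* −0.30 with a pseudocount of 1 and −0.21 with the trends removed, and that of *Plod* −0.28 with the trends removed. With a library left out the medians lay between −0.40 and −0.16 for *Adam*, −0.58 and −0.24 for *Adamts*, −0.48 and −0.37 for *Mmp*, −0.34 and −0.14 for *Timp*, −0.60 and −0.33 for *Lox*, −0.69 and −0.47 for *Plod* and 0.032 and 0.19 for *P4h*. The values −0.16 (*Adam*) and 0.19 (*P4h*) came without wild-type replicate 1, as did −0.33 (*Lox*) and −0.16 for *Timp*, −0.58 (*Adamts*) without *Pax9*-null replicate 2, −0.14 (*Timp*) without *Pax9*-null replicate 3, and for *P4h* 0.11 without wild-type replicate 2 and 0.032 when wild-type replicate 3 was left out. *Adam10* changed sign under quantile normalization (−0.0006) and with the trends removed (−0.083), and *P4hb* under quantile normalization (−0.31). The cause of these shifts was not tested. The fits that leave some genes or a library out also rest on fewer of them. The number of all genes called fell to 1335 at the threshold of 0.05, to 1377 with the replicate block and to 733 with the trends removed. With a library left out it fell to between 175 and 3578. The replicate numbers did not pair the samples, since same-numbered libraries had correlations of −0.02, −0.17 and 0.26 and *Pax9*-null replicate 2 correlated best with wild-type replicate 1 (0.36).

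Depth limits the members with few reads, such as *Mmp9* with 6 to 22 reads per library. With 3 libraries per genotype, a call at an adjusted *P* near 0.1 rests on limma's model of the variance and can change with a single library.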
